A study of Mus musculus with 3 samples.

Results

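The genes described here were 10 genes by which hepatic stellate cells and contractile mesenchymal cells are known, namely Vim, Des, Acta2, Tagln, Lgals1, Myl9, Tpm2, Lrat, Reln and Pdgfrb, out of 18193 genes that a probe set of the array named singly. Every probe set whose annotation named one of these genes and no other was taken, 22 in all, and each gene was read mainly by its brightest probe set. RNA came from livers of male C57BL/6J mice, which were put on their diets at 6 weeks of age and kept on them for 15 weeks. Control mice ate a diet with 10% of energy from fat (D12450B), HF mice one with 60% (D12492), and HF+SFC mice the same 60% fat diet with sodium ferrous citrate, an iron salt, added at 0.023% by weight. Both base diets already held iron. The labels give the age as 21 months, which does not match these times. The cDNA of a group's animals was pooled and measured on 1 array, so that there were 3 arrays, no replicates and no test between groups, and how many mice entered each mix is not given in the sources used here.

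Hepatic stellate cells lie between the hepatocytes and the endothelium of the sinusoids, where in the resting state they store vitamin A as retinyl esters in lipid droplets. In liver injury they can become activated, losing their vitamin A stores and turning into contractile, matrix-producing cells that resemble myofibroblasts and express smooth muscle proteins. Lrat marks the resting cell, and Des, Vim, Reln and Pdgfrb mark stellate cells in general. Acta2, Tagln, Myl9 and Tpm2 belong to the contractile apparatus that is increased on activation.

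Values are MAS5 signals, that is, intensities on a linear scale which the authors had set to the same trimmed mean on each array. Where 3 signals are given in a row, they are those of Control, HF and HF+SFC in this order. A probe set counted as kept if its mean log2 signal lay in the upper 50% of probe sets, at a signal of 76.9 or more. All 10 genes passed this filter, as did 17 of their 22 probe sets. In place of replicate error, the SD of the log2 ratio between probe sets of one gene is given for 4 bands of signal, each with the same number of kept probe sets. From the dimmest band to the brightest it was 0.57, 0.37, 0.23 and 0.15 in HF over Control. In HF+SFC over HF it was 0.54, 0.35, 0.21 and 0.12. It covers the measurement within these arrays and not the variation between mice.

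Of the 10 genes, 9 stood at least 1.5-fold higher in HF than in Control, whereas 11.3% of all 11341 kept genes were higher by that much. The 10 genes were chosen with earlier results of these data known, so the counts here describe them and are no test. The median log2 ratio of the 10 genes was 0.94, and that of all kept genes was 0.03. At 2-fold or more stood 4 genes, Lgals1, Tpm2, Vim and Des, against 3.45% of all kept genes. In HF+SFC, 5 of the 10, namely Des, Vim, Acta2, Myl9 and Pdgfrb, were at least 1.5-fold lower than in HF, where 5.33% of kept genes were, and the median log2 ratio was -0.48 beside -0.01 for all kept genes. Des and Vim were at least 2-fold lower, as were 1.19% of kept genes. Against Control, 2 of the 10, Lgals1 and Tpm2, were at least 1.5-fold higher in HF+SFC (9.2% of kept genes). Both comparisons with HF use the same HF array, so that a high value on that array alone would raise the ratio in the first and lower it in the second. The ratio of HF+SFC over Control does not contain that array, and its median over the 10 genes was 0.22 on the log2 scale.

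**Figure D1:**
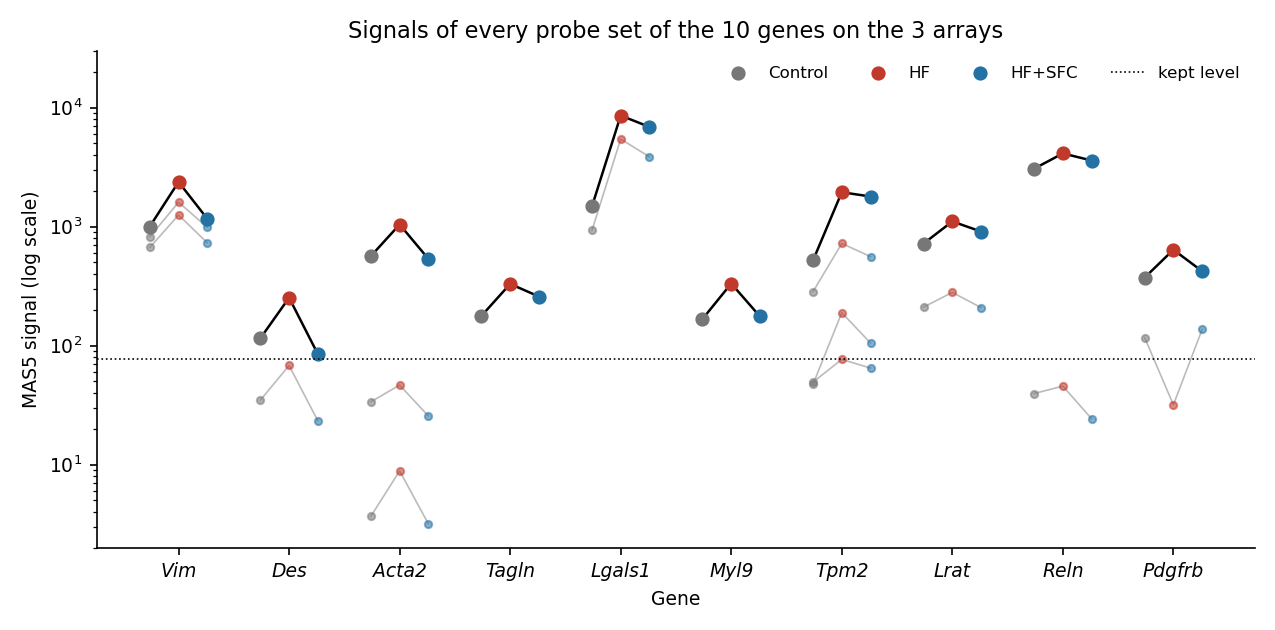
MAS5 signal (y axis, log scale) of all 22 probe sets of the 10 genes (x axis) on the Control (grey), HF (red) and HF+SFC (blue) arrays; large points joined by black lines are the brightest probe set of a gene, small points its other probe sets, and the dotted line is the kept level of 76.9. The brightest probe set of each gene was highest on the HF array, and only 1 probe set, the dimmer one of Pdgfrb, was lowest there.

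Vimentin and desmin are the intermediate filament proteins of mesenchymal and muscle cells. The brightest probe set of Vim (1438118_x_at) read 1001 on the Control array, 2371 on the HF array and 1164 on the HF+SFC array. HF was thus well above the other arrays, which lay close together. HF was 2.37-fold higher than Control and HF+SFC 2.04-fold lower than HF. Of the 3555 kept genes in the brightest band, only 3 had a lower ratio of HF+SFC over HF than Vim. The other probe sets of Vim were less far apart, at 819, 1602 and 986 for one and 667, 1250.4 and 730.4 for the other. All 3 probe sets were at least 1.5-fold higher in HF over Control, at 0.91 to 1.24 on the log2 scale, and at least 1.5-fold lower in HF+SFC over HF, at -1.03 to -0.70.

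Des, a classical stellate cell marker in rodents, was dim. Its brighter probe set (1426731_at) had signals of 115, 253 and 84.9 in Control, HF and HF+SFC, and its dimmer one, below the kept level, 34.8, 68.1 and 23.4. The order of the arrays was the same in both. The log2 ratio of HF over Control was 1.13, and that of HF+SFC over HF was -1.57, the 40th lowest of all 11341 kept genes. In the dimmest band, where Des lay, the SD between probe sets for that ratio was 0.54, and 17.4% of genes were lower by at least 1.5-fold.

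Other filament genes varied, with Gfap, by its kept probe set, highest in HF as Vim and Des were. Gfap, an intermediate filament gene of resting stellate cells, had signals of 73.5, 122 and 96.7 in the kept one of its 3 probe sets, while its other probe sets put the log2 ratio of HF over Control between 0.58 and 3.63 and that of HF+SFC over HF between -3.04 and 2.32. Nes, which encodes nestin, read 275, 290.3 and 169. Nes therefore differed from Vim and Des in that its HF signal was near that of Control. The keratins of hepatocytes were not highest in HF: Krt8 had signals of 3867, 7654 and 8961, and Krt18 of 4939, 6513 and 6877. For both, the highest value was that of HF+SFC.

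The contractile genes Acta2, Myl9 and Tagln were each about as much higher in HF, at log2 ratios of 0.88, 0.99 and 0.89. Acta2 encodes smooth muscle α-actin, the standard marker of an activated stellate cell. Its brightest probe set (1416454_s_at) read 565, 1041 and 536. Control and HF+SFC were alike, and HF stood above both. The log2 ratio of HF+SFC over HF was -0.96, and 3 of the 3279 kept genes of that band were lower. This probe set carries the suffix s, which marks probes shared with other transcripts, and actins are closely related in sequence. The other probe sets of Acta2, both below the kept level, showed the same order of the arrays with 33.7, 46.6 and 25.6 in one and 3.68, 8.86 and 3.18 in the other.

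Myl9, the regulatory light chain of smooth muscle myosin, had 1 probe set (1452670_at) with signals of 167, 332 and 176. It followed the pattern of Acta2, with HF 1.98-fold higher than Control and HF+SFC 1.89-fold lower than HF. Tagln, which encodes the actin-binding protein transgelin, also had 1 probe set (1423505_at), with signals of 178, 329.8 and 259. HF+SFC lay between the other arrays here, 1.28-fold below HF and 1.46-fold above Control. Both genes lay in the band where the SD between probe sets was 0.37 and 0.35 in these comparisons. The log2 ratio of Tagln in HF+SFC over HF, -0.35, was as large as that SD.

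Tpm2, or β-tropomyosin, which winds along actin filaments, departed from these. Its brightest probe set (1419738_a_at) read 520.2, 1944 and 1789. Both groups on the high-fat diet were far above Control and near to each other. HF was 3.74-fold and HF+SFC 3.44-fold higher than Control, whereas the log2 ratio of HF+SFC over HF was -0.12. The other kept probe sets of Tpm2 read 284, 721 and 560.0 in one case and 47.3, 189 and 105 in the other, and the probe set below the kept level 49.4, 76.5 and 64.8. All 4 probe sets had the same order of arrays, but the drop from HF to HF+SFC differed among them, from -0.12 to -0.85 on the log2 scale.

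Relatives of these genes, named as family members after their values had been seen, varied. Tpm1 had log2 ratios of HF over Control of 0.25, Tpm3 of 0.33 and Tpm4 of -0.03. Tagln2, a transgelin of other cell types, stood at 0.36, and the non-muscle light chains Myl12a and Myl12b at 0.29 and 0.35. Myl6, a myosin essential light chain in the dimmest band, was farther from Control at 0.87, with signals of 94.7, 173 and 166. Among the actins, Actb by its brightest probe set differed by at most 0.03 on the log2 scale in any of the 3 comparisons. The sign of these ratios turned under other scalings. The other probe set of Actb stood at 0.07 in HF over Control and 0.20 in HF+SFC over HF. Actg1, cytoplasmic γ-actin, had signals of 6055, 10882 and 10659. Actg1 was accordingly high in both high-fat groups, as Tpm2 was, and its log2 ratio of HF+SFC over HF of -0.03 was positive under median centring. The other muscle actins were dim. Actg2, smooth muscle γ-actin, was below the kept level and had the order of arrays of Tagln with 35.3, 96.2 and 52.1. Acta1 and Actc1 lay in the dimmest band of kept probe sets and did not follow Acta2. Acta1, skeletal α-actin, was lowest in HF with 99.4, 45.0 and 138, and Actc1, cardiac α-actin, was highest in HF+SFC with 83.9, 92.4 and 139.5.

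**Figure D2:**
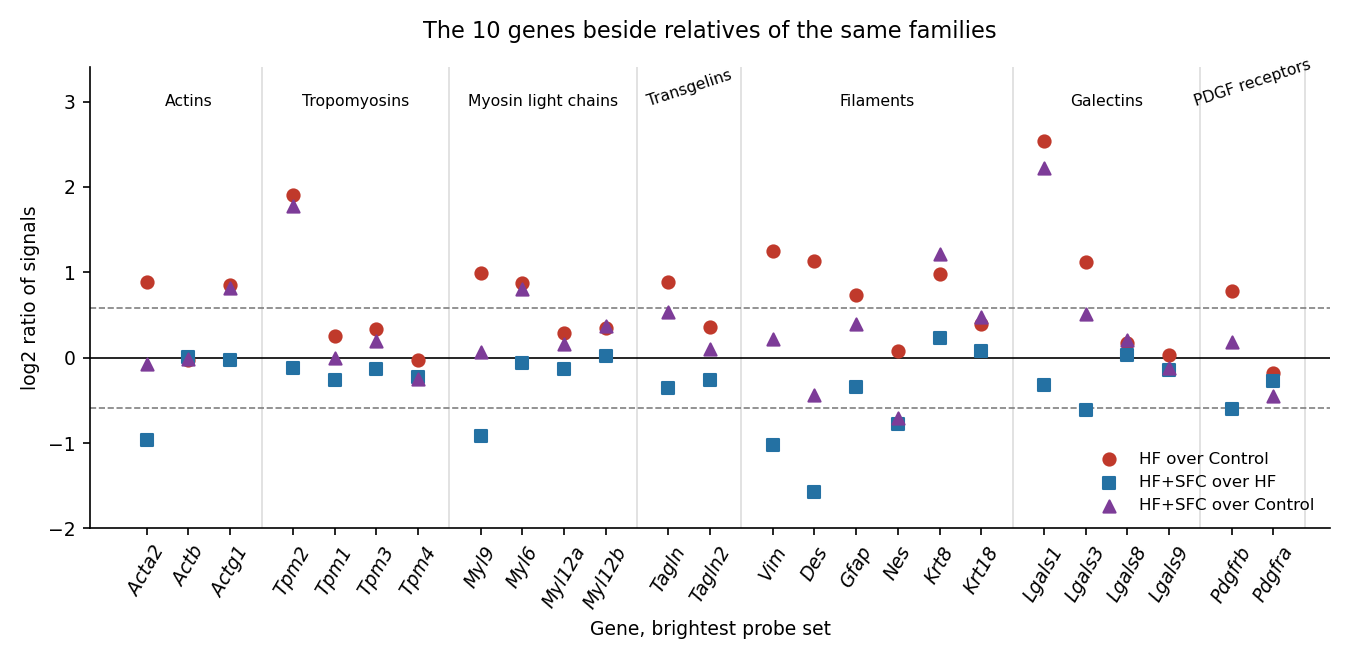
Log2 ratio of signals (y axis) as HF over Control (red circles), HF+SFC over HF (blue squares) and HF+SFC over Control (purple triangles), brightest probe set of each gene, grouped by protein family with the gene of interest first; dashed lines mark 1.5-fold. Tpm2 and Lgals1 have HF+SFC over Control values of 1.78 and 2.22, and Acta2 and Vim of -0.08 and 0.22.

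Many contractile genes are regulated through CArG boxes, which bind serum response factor (SRF). Windows of 250 bases before the start site were taken from RefSeq for the 7 genes that were matched by symbol (Vim, Des, Acta2, Myl9, Tpm2, Lrat and Reln; GRCm38.p6), and Tagln, Lgals1 and Pdgfrb were not matched. The motif reads the same on both strands. A full CArG box was found in 1 of the 7 windows, that of Myl9, and in 1.47% of all 32851 windows of the table. With at most 1 G or C allowed inside the A/T core it was found in 3, those of Acta2, Myl9 and Lrat, and in 8.59% of all windows. In HF+SFC over HF, the log2 ratios of these 3 genes were -0.96, -0.92 and -0.28. Those of Des, Vim, Reln and Tpm2, which held no match, were -1.57, -1.03, -0.20 and -0.12. A link between matches and ratios was not tested. The windows of Acta2, Myl9 and Tpm2 are printed because these contractile genes shared a higher signal in HF but not their value in HF+SFC. They run 5′ to 3′ on the strand of the gene and end 1 base before the start site, and capitals mark CArG boxes with at most 1 departure. In Acta2 (chr19:34255374-34255623, minus strand) these begin at positions -84 and -34, in Myl9 (chr2:156775214-156775463, plus strand) at -161, the full box, and -99, and in Tpm2 (chr4:43523555-43523804, minus strand) there was no match.
Acta2: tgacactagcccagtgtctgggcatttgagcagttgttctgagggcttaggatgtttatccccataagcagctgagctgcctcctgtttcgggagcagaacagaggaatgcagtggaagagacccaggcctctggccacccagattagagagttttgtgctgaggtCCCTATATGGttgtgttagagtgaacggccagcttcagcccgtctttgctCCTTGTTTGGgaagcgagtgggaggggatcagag
Myl9: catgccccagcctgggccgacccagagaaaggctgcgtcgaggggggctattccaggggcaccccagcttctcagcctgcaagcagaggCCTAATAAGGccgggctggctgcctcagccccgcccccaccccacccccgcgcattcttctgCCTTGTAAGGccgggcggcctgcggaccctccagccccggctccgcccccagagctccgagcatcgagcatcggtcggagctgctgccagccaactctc
Tpm2: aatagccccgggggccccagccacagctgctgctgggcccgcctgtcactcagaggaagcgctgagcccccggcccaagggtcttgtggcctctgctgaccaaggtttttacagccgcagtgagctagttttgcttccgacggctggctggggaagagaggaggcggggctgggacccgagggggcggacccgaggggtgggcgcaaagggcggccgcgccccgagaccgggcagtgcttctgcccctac

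The GC box GGGCGG, searched on both strands, lay in 5 of the 7 windows (Des, Myl9, Tpm2, Lrat and Reln) and in 32.7% of all windows. Reln held 6 copies of it and Myl9 held 3, and none of them overlapped a CArG box. Such matches describe the sequence and do not show that a factor binds. The RNA of SRF itself did not follow the contractile genes, since Srf had signals of 413, 339.5 and 418. Of its kept cofactors and targets, Fhl1, a LIM protein of muscle, was highest in HF by its brightest probe set (454, 671 and 493). The other probe set of Fhl1, below the kept level, put HF lowest. Its log2 ratios were -2.76 in HF over Control and 3.10 in HF+SFC over HF. The immediate early gene Egr1 was lowest in HF+SFC (2227, 1911 and 1311). The matricellular gene Ccn1 was highest there by its brightest probe set (302, 290.2 and 449). Its 4 probe sets, however, ran from -0.22 to 0.63 on the log2 scale in HF+SFC over HF. Of the 6 kept genes of this list, 0 were beyond 1.5-fold in HF over Control. Of all kept genes, 11.3% were higher and 5.84% lower by that much, so that a count of 0 among so few is little different.

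Lgals1 had the largest ratios of the 10 genes over Control, in HF as in HF+SFC. It encodes galectin-1, a secreted β-galactoside-binding lectin made by mesenchymal and immune cells. Its brightest probe set (1455439_a_at) read 1476, 8569 and 6873, and the other one 928, 5437 and 3854. Control was far below both other arrays. HF over Control stood at 2.54 and 2.55 on the log2 scale in the 2 probe sets, a 5.80-fold difference by the brighter, and ranked 26th highest of the 11341 kept genes. HF+SFC was still 4.66-fold above Control and 1.25-fold below HF. The log2 ratio of HF+SFC over HF was -0.32 and -0.50 in the 2 probe sets, where the SD between probe sets in that band was 0.12.

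Other galectins varied. Lgals3, a macrophage galectin, was the nearest in HF over Control with signals of 396, 864 and 565, but HF+SFC lay farther below HF, by 0.61 on the log2 scale or 0.50 under median centring, which is inside 1.5-fold. Lgals4, a galectin of epithelia, ran the other way with 809, 443 and 338. Lgals8 and Lgals9 differed from Control by no more than 0.21 on the log2 scale. Of the 7 other galectins kept, 1 was at least 1.5-fold higher in HF and 1 lower, where 11.3% of all kept genes were higher and 5.84% lower.

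Lrat and Reln had the smallest ratios of the 10 in HF over Control. Lrat, lecithin retinol acyltransferase, which makes the stored retinyl esters, read 720.0, 1104 and 909 by its brighter probe set (1444487_at) and 211, 279.9 and 209 by the other. HF was highest in both, by 1.53-fold and by 0.41 on the log2 scale, and the first of these, just past 1.5-fold, was inside it under median centring. The probe sets did not share the position of HF+SFC against Control, at log2 ratios of 0.34 and -0.01. Reln, a secreted glycoprotein that marks stellate cells in the liver, was the only gene of the 10 inside 1.5-fold in HF over Control, with signals of 3063, 4116 and 3589.6 (1449465_at). Its log2 ratio was 0.43 in HF over Control, 2.84 times the SD between probe sets at that signal, and -0.20 in HF+SFC over HF, 1.61 times that SD. The other probe set of Reln was below the kept level with 39.6, 45.7 and 24.3.

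Retinoid partners of these genes had no common direction, and neither had reelin partners in HF over Control. In HF+SFC over HF all 4 kept reelin partners were below 0, Crk at only -0.001. Their median log2 ratio was -0.25, or -0.13 under median centring. Of 10 kept genes of retinoid handling, 2 were beyond 1.5-fold upward in HF over Control and 1 downward, against 11.3% and 5.84% of all kept genes. In HF+SFC over HF 2 of the 10 were beyond it downward and 1 upward, against 5.33% and 2.88% of all kept genes. Cyp26b1, which breaks down retinoic acid, read 438, 178 and 292. The retinoic acid receptor Rarg read 153, 328 and 212 by its brightest probe set, in the opposite sense. Its lower value in HF+SFC than HF was inside 1.5-fold under the other scalings. The other probe set of Rarg, below the kept level, had log2 ratios of -2.25 in HF over Control and 2.34 in HF+SFC over HF. The retinaldehyde dehydrogenase Aldh1a1 read 23117, 36866 and 36479, its higher value in HF being inside 1.5-fold under median centring. Among the receptors of reelin, Vldlr, which also takes up lipoproteins, read 118, 427 and 279, its drop from HF to HF+SFC again inside 1.5-fold under the other scalings, while Lrp8 was below the kept level. By their brightest probe sets, the adaptors Crk and Crkl were lower in both high-fat groups than in Control, with 3214, 2529.7 and 2527 and with 1055, 867 and 757. In HF over Control the probe sets of Crk ran from -0.65 to 0.95 on the log2 scale, and those of Crkl from -1.95 to 0.62. The adaptor Dab2 was highest in HF by its brightest probe set (475, 524 and 426), and Dab1 was below the kept level.

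Pdgfrb, the receptor through which platelet-derived growth factor drives stellate cell division and migration, gave opposed readings. By the brighter probe set (1436970_a_at) it read 373, 639 and 422, with HF 1.71-fold above Control and HF+SFC 1.52-fold below HF. The second of these was inside 1.5-fold under quantile, lowess and median scaling. By the other probe set (1417148_at), kept by a small margin, it read 117, 31.8 and 137, so that HF was lowest, with log2 ratios of -1.88 and 2.11. The SD between probe sets in its band was 0.57 and 0.54. Both ratios rest on an HF signal below the kept level, however, and below that level the SD was 1.73 and 1.66. Which of the probe sets reads the receptor better cannot be told from these arrays. In HF+SFC over Control both were alike at 0.18 and 0.23.

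The related receptor gene Pdgfra, also named after its values had been seen, was not higher in HF, with 389, 343 and 284. Among the ligands, Pdgfd read 70.9, 176 and 94.6, Pdgfb 103, 142 and 96.6, Pdgfc 317, 384 and 282, and Pdgfa 287, 539 and 517. All of them were highest in HF, and Pdgfa, whose HF and HF+SFC values changed order under median centring, was the least different between these arrays. Of 14 kept genes of PDGF and TGF-β signalling, 5 were beyond 1.5-fold upward in HF over Control and 1 downward. Tgfbr3 among the 5 was inside it under median centring. Of all kept genes, 11.3% were beyond it upward and 5.84% downward. The TGF-β receptor Tgfbr2 read 996, 1825 and 1402, and Skil, a repressor of TGF-β signalling, 1308, 756 and 793.

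**Figure D3:**
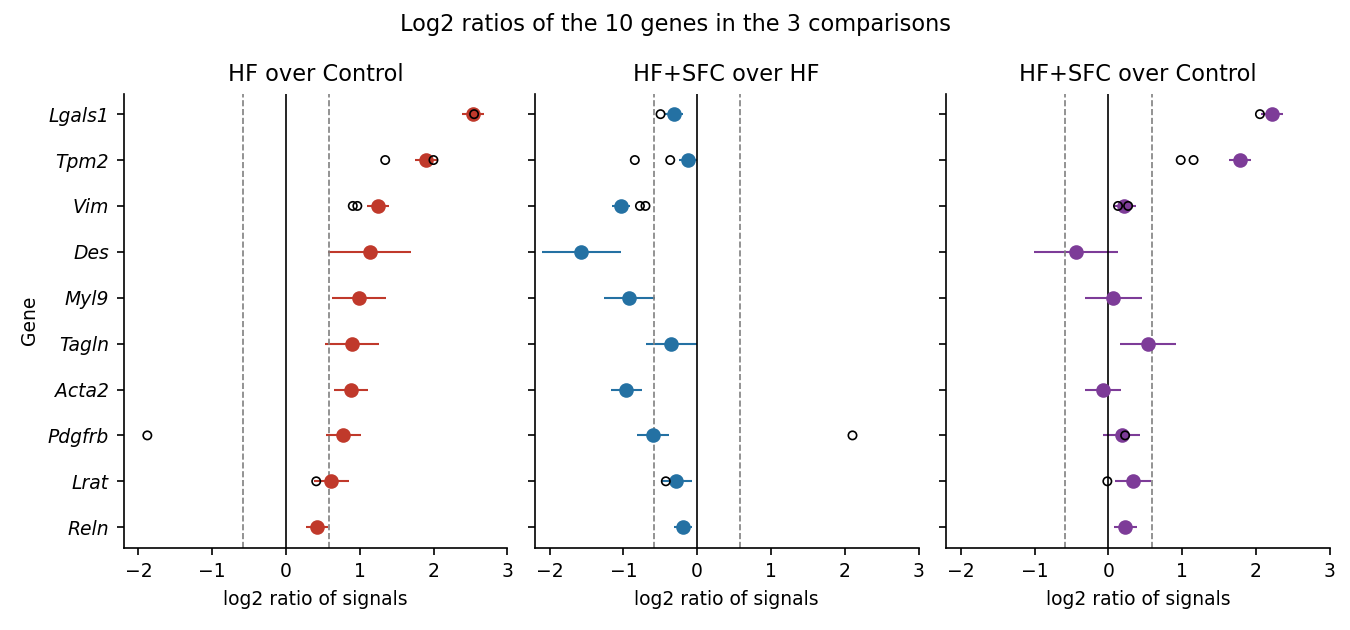
Log2 ratio of signals (x axis) of the 10 genes (y axis) in the 3 comparisons; filled points are the brightest probe set with bars of 1 SD between probe sets of one gene at that signal, open circles are other kept probe sets, and dashed lines mark 1.5-fold. Values of HF over Control run from 0.43 for Reln to 2.54 for Lgals1, and the open circle of Pdgfrb lies on the opposite side at -1.88.

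At the level of probe sets, 14 of the 17 kept ones were at least 1.5-fold higher in HF than in Control, against 11.2% of all 19794 kept probe sets with 1 gene. In HF+SFC over HF, 8 of the 17 were at least 1.5-fold lower, against 6.35% of all kept probe sets. Of all 22 probe sets, 21 were above 0 in HF over Control and 21 below 0 in HF+SFC over HF, and the exception in each was the dimmer one of Pdgfrb. In HF+SFC over Control, 15 of 22 were above 0. Probe sets of a gene share the array and the RNA and are no replicates.

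**Figure D4:**
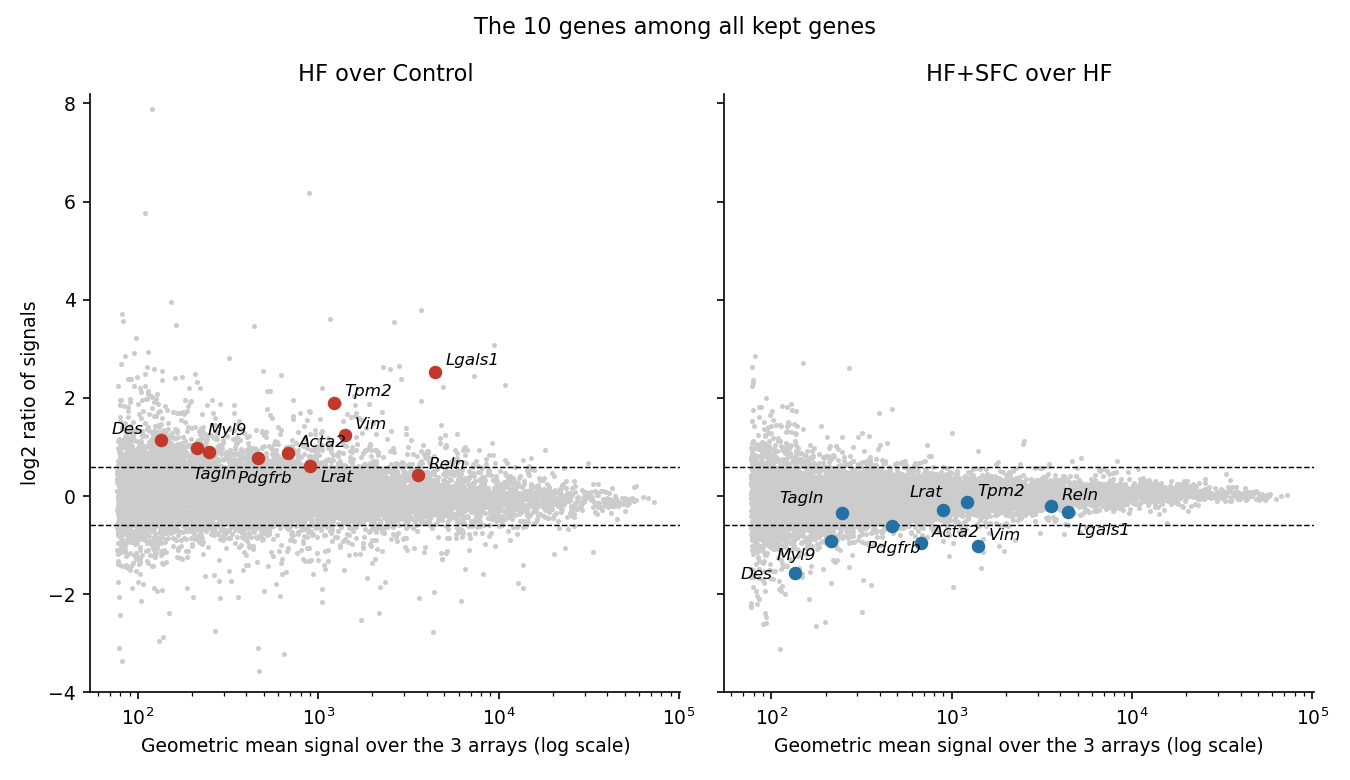
Log2 ratio of signals (y axis) by geometric mean signal of the arrays (x axis, log scale) for 11341 kept genes (grey) and the 10 genes (coloured, named); dashed lines mark 1.5-fold. In HF over Control Lgals1, Tpm2 and Vim lie above nearly all genes of like signal, and in HF+SFC over HF Vim, Acta2 and Des lie near the lower edge.

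Other genes of stellate cells differed in the same direction but by less. Of 31 further stellate cell genes, all kept, 6 exceeded 1.5-fold in HF over Control, against 11.3% of all kept genes. Of the 31, 25 were above 0, with a median log2 ratio of 0.41. In HF+SFC over HF, 3 of the 31 were at least 1.5-fold lower, against 5.33% of all kept genes. In that comparison 24 of the 31 were below 0 (median -0.18, or -0.06 under median centring). Ngfr in the first comparison and Rspo3 in the second were inside 1.5-fold under all 3 other scalings. Nt5e, an ecto-nucleotidase, was highest among them in HF over Control, with signals of 181, 519.8 and 518 by its brightest probe set. By that probe set it stayed high in HF+SFC, as Lgals1 and Tpm2 did. Its 3 probe sets disagreed, with log2 ratios from -1.64 to 2.77 in HF over Control and from -2.21 to -0.01 in HF+SFC over HF. The endothelin receptor Ednrb (497, 689.9 and 397) and the proteoglycan lumican, Lum (599, 1034 and 845), were also highest in HF. Of 21 kept contractile and actin-binding genes, 5 exceeded 1.5-fold in HF over Control, against 11.3% of all kept genes, and the median was 0.33. As far below Control was 1, the LIM protein gene Csrp2 (2549, 1429.9 and 1602), against 5.84% of all kept genes. Of the 5, Pdlim7 and Zyx, adaptors of the cytoskeleton, were inside 1.5-fold under quantile, lowess and median scaling. α-Actinin-1, Actn1, read 932, 1640.0 and 1419. Of 11 collagen genes 9 exceeded 1.5-fold in HF over Control (median 0.85), of which Col4a1 was inside it under the other scalings. From HF to HF+SFC, 3 collagen genes dropped past 1.5-fold (median -0.39). Col3a1 was the highest of them, with 877, 2851 and 1685 by its brightest probe set. The other probe set of Col3a1, also kept, stood at -0.13 on the log2 scale in HF+SFC over HF, inside 1.5-fold.

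In whole liver, a higher share of a cell type and more RNA per cell cannot be told apart. Several of the 10 genes are also made by other cells, and markers of these were compared. All 5 markers of vascular smooth muscle, Myh11, Cnn1, Actg2, Lmod1 and Smtn, were below the kept level. Their summed signal of 153, 329 and 209 was low but had the same order of arrays as that of Tagln. Singly they differed. Smtn and Actg2 had that order, whereas Myh11 was highest in HF+SFC (53.2, 69.1 and 85.4). Cnn1 (19.2, 20.8 and 15.5) and Lmod1 were lowest there. Of 14 kept macrophage markers 4 exceeded 1.5-fold in HF over Control, and 4 lay past 1.5-fold below HF in HF+SFC. The shares of all kept genes were 11.3% and 5.33%. All 14 macrophage markers were above 0 in the first and below 0 in the second comparison, but under median centring Timd4 turned sign in the second. Cd68, C1qc and Lyz2 came inside 1.5-fold there, as Lyz2 did in the first. Their summed signal was 22659, 29908 and 22595. Marco, a scavenger receptor, had log2 ratios of 1.16 and -1.82. Sinusoidal endothelial markers had medians of 0.15 and -0.19 over 14 genes, with 2 and 1 beyond 1.5-fold, little different from 11.3% and 5.33% of all kept genes. Under median centring these medians were 0.06 and -0.07, and Lyve1, the 1 marker past 1.5-fold in HF+SFC over HF, came inside it. Portal fibroblast and mesothelial markers were kept in 3 of 9, and all 3 were above 0 in HF over Control (median 0.45) and below 0 in HF+SFC over HF (median -0.37). Cholangiocyte markers were kept in 3 of 5, all in the dimmest band, with medians of 0.38 and -0.73. Krt19 and Epcam lay past 1.5-fold below HF in HF+SFC, at -0.89 and -0.73. Sox9, the other kept marker, went the opposite way, at -0.83 in HF over Control and 0.41 in HF+SFC over HF. Lymphocyte markers were kept in 1 of 9. None of 3 adipocyte markers and 1 of 5 skeletal muscle markers were kept. All 10 hepatocyte markers were kept. They had medians of -0.09 and 0.03, the sign of both turning under lowess scaling. The part of these cells in the values of the 10 genes was not tested.

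**Figure D5:**
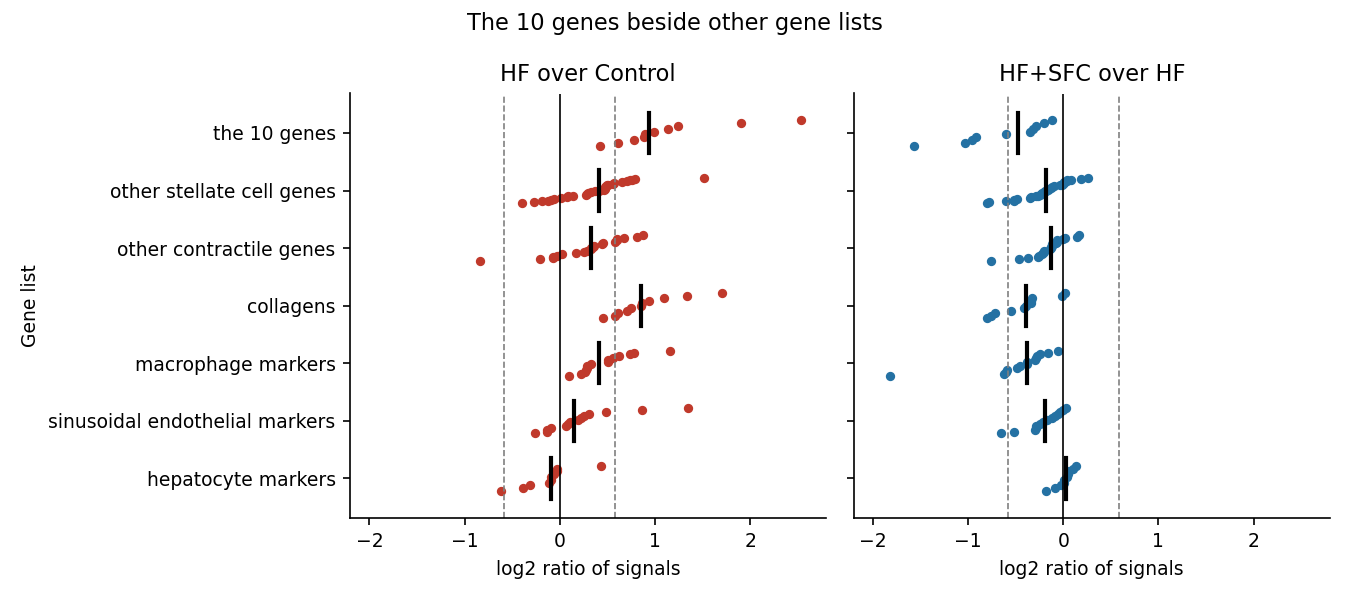
Log2 ratio of signals (x axis) of the kept genes of 7 lists (y axis) in HF over Control (left panel) and in HF+SFC over HF (right panel); each point is a gene, black bars medians, dashed lines 1.5-fold. The 10 genes have medians of 0.94 and -0.48, collagens of 0.85 and -0.39, and macrophage markers of 0.42 and -0.38.

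RNA quality was compared through control probe sets at the 3′ and 5′ ends of transcripts. Dividing 3′ by 5′ signal gave its lowest value in HF for Actb (1.84, 1.65 and 1.73), Gapdh (0.708, 0.680 and 0.708), pyruvate carboxylase (4.28, 3.23 and 3.89) and 18S rRNA (0.685, 0.583 and 0.663), and highest in HF for the transferrin receptor (1.57, 4.04 and 0.808). HF was also the array on which the 10 genes were highest, and the part of this difference in their values was not tested.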

How the data were processed

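Liver RNA was measured with Affymetrix mouse genome arrays, 1 per group. The deposited values are intensities, MAS5 signals per the labels (version not given in the sources used here), which the authors had scaled so that the 2% trimmed mean was 500.004 on every array. Median signals ranged from 80.4 to 87.3. Detection calls were not used here, and precision is limited by 1 array per group. Of 45037 probe sets other than 64 controls, 34945 named 1 gene in the platform annotation. Log2 ratios of the deposited intensities were taken, and genes beyond 1.5-fold were counted. The SD between probe sets of one gene was pooled within 4 bands of mean signal. Up to 4 genes of each list with the largest ratios, and partners of the 10 genes, were named. The genes and lists were chosen with earlier results of these data known. Alternatives were quantile, median and lowess scaling (fraction 0.3), a floor at the array median, a pseudocount of 16, other choices of probe set, the upper 25% of signal and a 2-fold threshold. Steps were tested on simulated data and run in Python 3.11.15 with numpy 2.4.6, pandas 2.3.3 and statsmodels 0.14.6.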

Additional observations from a re-analysis of the deposited data

How the results depend on the processing

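Of the log2 ratios of single genes under the 9 alternatives, 77 of 84 in HF over Control, 75 of 84 in HF+SFC over HF and 81 of 84 in HF+SFC over Control moved by less than the SD between probe sets. Reln in HF+SFC over Control turned from 0.23 to -0.24 as the median over all its probe sets. The other ratios that turned sign were of Pdgfrb, which stood at -0.55 (HF over Control) and 0.75 (HF+SFC over HF) as the median over its kept or all probe sets, and at -1.88 and 2.11 without probe sets whose suffix (s, x or a) marks several transcripts. Without these probe sets 7 of the 10 genes could be read. In HF over Control 5 of them were higher and 1 was lower by 1.5-fold, in HF+SFC over HF 3 were lower and 1 was higher, and in HF+SFC over Control 0 were higher, since Lgals1 and Tpm2, like Acta2, had no kept probe set left. With medians over probe sets 1 gene, Pdgfrb, was higher in HF+SFC over HF. In the upper 25% of signal, which left 7 genes, 3 were lower in HF+SFC over HF. At 2-fold the counts were 4 higher in HF over Control and 2 lower in HF+SFC over HF. Median centring moved the median of all kept genes by 0.12 in HF+SFC over HF, and other scalings by less than 0.1. No paired analysis was possible because each group had 1 array, and for the same reason no array could be left out. Depth does not apply to arrays, and Des and the dim probe sets of other genes, at low signal, are the least precise.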
